A study of Mus musculus with 6 samples.

Results

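The 44 genes described here are the core genes of DNA replication and its licensing in mouse astrocytes. They were taken from a list of gene names that was drawn up with earlier results of these data known, and all 44 have a row among the 17193 gene identifiers measured in each library. All 44 also reached the level needed for testing, a mean of at least 1 FPKM (sequenced fragments scaled to gene length and library depth) over the 6 libraries, so none was lost to the filter on low values. The astrocytes came from brains of wild-type C57BL/6 mice, aged 3 months, that were treated with Mock or with Quinpirole, and polyadenylated RNA was sequenced in 3 libraries per group. Quinpirole is an agonist of D2-type dopamine receptors, and the study's supplement calls the control treatment saline. The cells were selected with magnetic beads against ACSA-2, a surface antigen of astrocytes, and both groups carried no engineered allele. The dose and duration given to the sequenced mice, and the number of mice behind each library, are not given in the sources used here, so p-values measure only the spread between these libraries.

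A cell prepares to copy its genome by loading the MCM helicase onto origins that the origin recognition complex has marked, a step called licensing. In S phase kinases switch the helicase on, DNA unwinds, and primase, polymerases, a sliding clamp and enzymes that finish the lagging strand copy both strands from nucleotides made by ribonucleotide reductase and thymidylate synthase. Most of these genes are controlled by E2F transcription factors, and most adult astrocytes do not divide, although astrocytes can enter the cell cycle again after injury or in culture.

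The libraries held an estimated 22400000 to 27600000 fragments, read from the steps of the lowest FPKM values, of which 58.5% to 65.9% per library lay within 0.1 of a whole fragment (20% by chance). An estimated 78 fragments per library stood behind the weakest member, Orc1, 697 behind the median member and 4460 behind the strongest, Rpa1. Counting error alone would then give a median coefficient of variation of 3.79%, and the members' median coefficient of variation within groups was 5.88%. These figures cover counting error only. Over all listed genes, FPKM added up to 401769 to 413730 per Mock library and to 425244 to 437164 per Quinpirole library. Among the astrocyte markers, Gfap lay between 482 and 560 FPKM, Aldoc between 293 and 348 FPKM and Slc1a3 between 186 and 215 FPKM, whereas Gjb6, a gap junction gene of mature astrocytes, did not exceed 0.281 FPKM and the glutamate transporter gene Slc1a2 did not exceed 8.55 FPKM. Nes, a gene of neural progenitors, lay between 268 and 321 FPKM, and Acta2, the actin of contractile cells, between 2518 and 2881 FPKM. The label of astrocytes taken from the brain was therefore met by some of its defining markers and not by others, and the cells are called astrocytes here as labelled.

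Replication transcripts were present at moderate levels and were slightly higher after quinpirole. Of the 44 members, 42 had a higher mean after quinpirole (95.5%, beside 53.8% of the 12255 genes tested), and their median difference was 0.14 on the log2(FPKM + 1) scale, beside 0.02 over all tested genes. In limma's test, 7 members passed an adjusted p of 0.05 and all 7 were higher: Rrm2, Mcm7, Rpa2, Mcm2, Tyms, Rrm1 and Orc5. That is 15.9% of the members, against a background of 10.9% of all tested genes in either direction, 5.74% higher and 5.18% lower. No member passed the threshold as lower, here or under any of the 17 alternative settings. The differences were small, and the 7 called members rose by 0.17 to 0.32 on the log2 scale, where the 90th percentile of all tested genes was 0.20.

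Most members did not pass. All Quinpirole libraries lay above all Mock libraries for 23 of the 44 members (52.3%, background 20.0%), none had the opposite order (background 16.9%), and the remaining 21 overlapped. An unadjusted p under 0.05 was reached by 20 members, a share to be read against 31.3% of all tested genes. Taken library by library, the median member lay 0.17, 0.15 and 0.16 above its Mock mean in Quinpirole replicates 1, 2 and 3, and within 0.01 of it in each Mock library. That mean was computed from the same Mock libraries, so their nearness to it does not measure how steady they are. Most calls among the members were lost when a single library was left out. Calls also fell over all tested genes, from 1339 to between 3 and 1215. No member was called without Mock replicate 1, Mock replicate 2, Quinpirole replicate 1 or Quinpirole replicate 2, only Rrm2 was called without Quinpirole replicate 3, and Rrm2, Mcm7, Gmnn, Fen1 and Rpa3 were called without Mock replicate 3. Over these omissions the adjusted p of the 7 in limma ran from 0.0270 for Rrm2 to 0.152 for Rrm1, and the members' median difference stayed between 0.14 and 0.16. Orc5, Rrm1 and Tyms also lost their calls under median ratio scaling and without a filter on low values, and Mcm2, Orc5 and Rrm1 when the variance trend was left out, with the direction kept. In bulk RNA, more cells in S phase and more replication RNA per cell cannot be told apart.

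**Figure D1:**
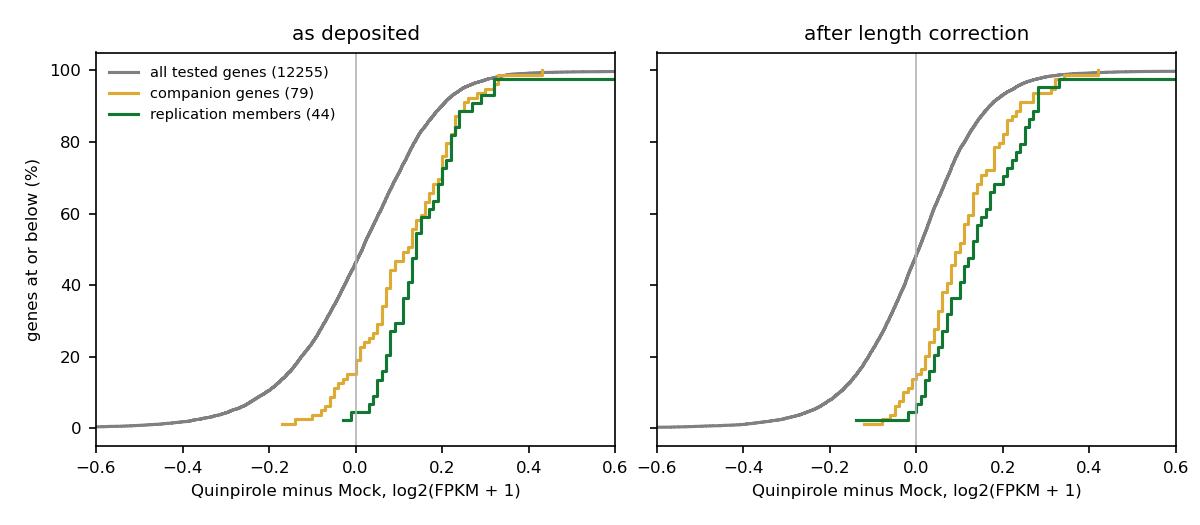
Cumulative share of genes (y axis, percent) at or below each difference between Quinpirole and Mock means on the log2(FPKM + 1) scale (x axis, cut at -0.6 and 0.6, which leaves out 91 of the tested genes), as deposited on the left and after correction for exonic length on the right. The curve of the 44 members lies to the right of that of the 12255 tested genes in both panels, with medians of 0.14 against 0.02 on the left and 0.13 against 0.01 on the right.

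Levels spanned from 1.01 FPKM for Orc1, the mean over the 6 libraries, to 88.4 FPKM for Pcna. FPKM is a level per length, so members can be compared with each other. Of the 44 members, 10 had a mean of at least 20 FPKM, namely Pcna, Rrm2, Rpa1, Rfc2, Mcm7, Rrm1, Mcm6, Mcm2, Mcm3 and Tk1, and 9 lay under 5 FPKM. The weakest were Orc1, Cdc6, Cdc7, Gins3 and Mcm10. Neighbours in this order mostly did not differ beyond their spread: Rrm2 averaged 34.3 FPKM and Rpa1 34.1 FPKM, whereas Pcna stood well apart. Summed over all 44 members, the level was 583, 589 and 607 FPKM in the Mock libraries and 669, 674 and 674 FPKM in the Quinpirole libraries, with no overlap. The sum over all listed genes did not overlap either, at 401769 to 413730 FPKM in the Mock libraries and 425244 to 437164 FPKM in the Quinpirole libraries. The sums of members given below are to be read beside it.

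**Figure D2:**
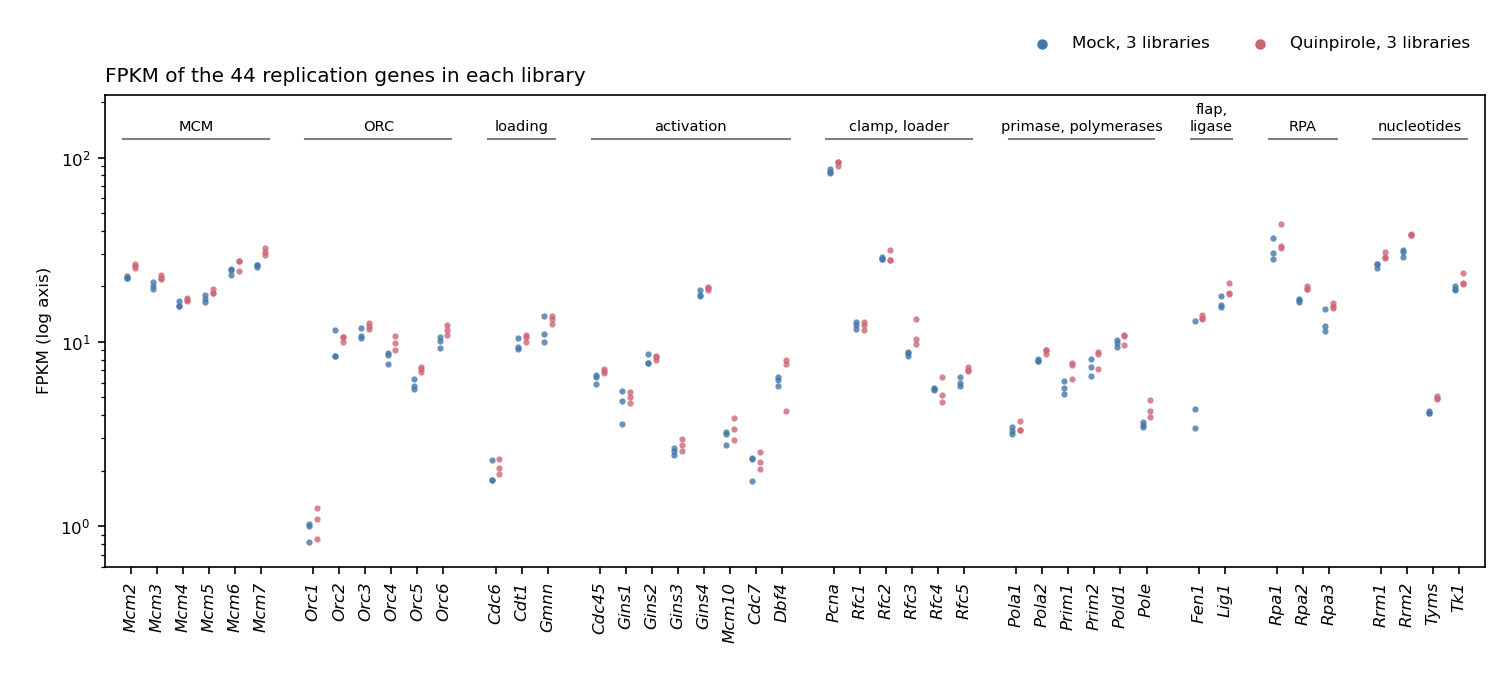
FPKM (y axis, log scale) of the 44 replication genes in each of the 3 Mock and 3 Quinpirole libraries, grouped by role along the x axis, with 1 point per library. Pcna is the highest at 82.3 to 94.2 FPKM and Orc1 the lowest at 0.819 to 1.26 FPKM, and the pair of low Mock points of Fen1 stands apart.

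The 6 subunits of the MCM helicase, the ring that unwinds DNA at the fork, were all higher in the mean after quinpirole. Of the 6, 2 rose (33.3%, beside a background of 10.9% in either direction and 5.74% higher). They were expressed at like levels, with means over all libraries from 16.5 FPKM for Mcm4 to 28.3 FPKM for Mcm7. Their sum was 126, 127 and 125 FPKM in the Mock libraries and 143, 143 and 137 FPKM in the Quinpirole libraries. Every Quinpirole sum lay above every Mock sum, as was also the case for the sum over all listed genes. Mcm7 (chr5:138164583-138172422, minus strand, GRCm38) measured 25.4, 26.2 and 26.0 FPKM in the Mock libraries and 30.6, 32.3 and 29.6 FPKM in the Quinpirole libraries. The groups did not overlap, and the mean rose from 25.8 ± 0.418 to 30.8 ± 1.34 FPKM (SD, n = 3 libraries per group). The difference was 0.24 (SE 0.04) on the log2 scale, or 1.19-fold, with a limma adjusted p of 0.0251.

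Mcm2 (chr6:88883474-88898780, minus strand) measured 22.7, 22.3 and 22.3 FPKM in the Mock libraries and 26.6, 25.7 and 25.1 FPKM in the Quinpirole libraries. Here too the groups were separate, with means of 22.4 ± 0.237 and 25.8 ± 0.745 FPKM. The difference was 0.19 (SE 0.04), or 1.15-fold, with a limma adjusted p of 0.0322. Mcm3 had the same order of libraries, 21.0, 20.1 and 19.3 FPKM against 23.0, 22.3 and 21.9 FPKM, but did not pass the threshold (0.15, SE 0.05, limma adjusted p = 0.0790). Mcm5 was also separate, at 16.4 to 18.0 FPKM against 18.4 to 19.4 FPKM, with a limma adjusted p of 0.134. Mcm4 and Mcm6 overlapped between the groups, with differences of 0.07 and 0.12 that did not pass. Of the 6 subunits, 4 were thus separate with the Quinpirole libraries higher (66.7%, background 20.0%). Mcm7 shares 34.2% of the 50-base words of its longest transcript with other genes, mostly the processed pseudogene Gm5487, so part of its reads may be split, whereas Mcm2 shares 1.48%.

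The promoters of 4 of these genes are shown because E2F words are a known feature of replication gene promoters and are spread unevenly over these members. Each window runs from 250 bases before to 50 bases after the RefSeq transcript start on GRCm38.p6, 5′ to 3′ on the gene's strand. Capitals mark the E2F words TTTCCCGC, TTTCGCGC, TTTGCCGC or TTTGGCGC on either strand, with overlapping words run together. The windows are chr5:138171834-138172133 for Mcm7, chr6:88898731-88899030 for Mcm2 and chr1:128359656-128359955 for Mcm6, all on the minus strand, and chr12:24708004-24708303 on the plus strand for Rrm2, the ribonucleotide reductase subunit described further on.
Mcm7: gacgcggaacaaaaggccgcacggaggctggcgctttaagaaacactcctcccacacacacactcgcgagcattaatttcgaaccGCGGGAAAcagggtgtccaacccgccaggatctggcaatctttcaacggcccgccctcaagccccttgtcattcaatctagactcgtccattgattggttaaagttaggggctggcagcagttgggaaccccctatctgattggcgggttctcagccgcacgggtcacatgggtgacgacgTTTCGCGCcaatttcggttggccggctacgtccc
Mcm2: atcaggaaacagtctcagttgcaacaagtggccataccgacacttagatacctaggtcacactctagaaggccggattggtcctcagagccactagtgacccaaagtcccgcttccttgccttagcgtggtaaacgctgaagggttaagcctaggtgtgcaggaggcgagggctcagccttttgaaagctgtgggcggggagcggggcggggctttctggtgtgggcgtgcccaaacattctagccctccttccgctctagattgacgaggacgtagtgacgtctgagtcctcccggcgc
Mcm6: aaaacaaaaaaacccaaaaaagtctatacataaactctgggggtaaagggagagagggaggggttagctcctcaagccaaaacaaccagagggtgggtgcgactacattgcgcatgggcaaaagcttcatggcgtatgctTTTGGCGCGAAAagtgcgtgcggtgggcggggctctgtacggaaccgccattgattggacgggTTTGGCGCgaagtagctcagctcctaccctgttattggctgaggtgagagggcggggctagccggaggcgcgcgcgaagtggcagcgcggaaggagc
Rrm2: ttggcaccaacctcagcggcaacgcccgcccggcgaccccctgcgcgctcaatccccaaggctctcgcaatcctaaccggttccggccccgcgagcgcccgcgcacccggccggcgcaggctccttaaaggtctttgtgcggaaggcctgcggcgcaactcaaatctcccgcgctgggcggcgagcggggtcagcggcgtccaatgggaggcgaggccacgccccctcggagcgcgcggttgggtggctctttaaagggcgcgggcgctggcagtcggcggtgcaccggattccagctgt

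The Mcm7 window holds 2 of the E2F words and the Mcm6 window 3, of which a pair on opposite strands overlaps, whereas Mcm2 and Rrm2 hold none. Among the 36 members with a window, 12 held at least 1 E2F word (33.3%), beside 4.22% of the windows of 9607 tested genes and 2.32% of 27025 windows in all. The 12 were Mcm3, Mcm5, Mcm6, Mcm7, Orc1, Orc3, Cdc6, Cdt1, Gins3, Rfc3, Pola1 and Pold1. Of these, only Mcm7 is among the called members, so 1 of the 7 called members and 11 of the 29 others held a word. The CCAAT word, the binding site of NF-Y, was in 21 of the 36 windows (58.3%, beside 39.0% of tested genes), and in 5 of the 7 called members. The antioxidant response element TGACNNNGC, the site of Nrf2, was in 8 of the 36 windows (22.2%, beside 14.8% of tested genes). These matches describe the letters in a short window and were not tested against the differences in expression.

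The origin recognition complex, the 6-subunit machine that binds origins and calls the helicase, was higher in the mean for all 6 genes. Only Orc5 rose (16.7%, background 10.9%). Orc5 (chr5:22486485-22550429, minus strand) measured 5.52, 6.27 and 5.75 FPKM in the Mock libraries and 7.26, 6.84 and 7.14 FPKM in the Quinpirole libraries. The lowest Quinpirole library stood above the highest Mock library, and the means were 5.84 ± 0.383 and 7.08 ± 0.217 FPKM. The difference was 0.24 (SE 0.06), or 1.21-fold, with a limma adjusted p of 0.0493, the nearest to the threshold of the 7. Orc4 and Orc6 were separate between the groups without passing, with differences of 0.23 and 0.20. Orc1, Orc2 and Orc3 overlapped. Orc1 was the weakest member, with 0.819 to 1.03 FPKM against 0.855 to 1.26 FPKM, and at this depth the 95% interval of its difference ran from -0.15 to 0.31. Orc2 shares 21.6% of its words with the overlapping gene Nif3l1 on the other strand, and its Mock replicate 2 stood out at 11.6 FPKM beside 8.40 and 8.39 FPKM.

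No gene that loads or activates the helicase passed. Of the 3 loading genes, Cdc6, the ATPase that loads MCM with Cdt1, measured 1.77 to 2.28 FPKM against 1.91 to 2.30 FPKM. Cdt1 measured 9.10 to 10.5 FPKM against 9.96 to 10.9 FPKM. Geminin (Gmnn), the inhibitor that keeps Cdt1 from loading MCM again, ran from 9.95 to 13.8 FPKM against 12.5 to 13.8 FPKM. All 3 overlapped between the groups, and Gmnn passed the threshold only in the absence of Mock replicate 3, its highest Mock library (0.30, limma adjusted p = 0.0458).

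None of the 8 activation genes passed either (background 10.9% in either direction). Of the 8, 2 were separate between the groups with the Quinpirole libraries higher, Cdc45 and Gins4 (background 20.0%). Cdc45 and the GINS proteins complete the active helicase with MCM. Cdc45 differed by 0.12 and the 4 GINS genes by 0.04 to 0.11. After correction for exonic length, described further on, Gins4 turned to -0.02 and Gins1 to 0.00. Gins2 shares 70.3% of its words with Gse1, which overlaps it on the other strand, so its value may hold reads of both. Mcm10, a factor that helps the helicase start, differed by 0.11 and Cdc7, the kinase that fires origins, by 0.06. Dbf4, the regulatory subunit of Cdc7, was the most uneven of this group: 5.74, 6.46 and 6.22 FPKM in the Mock libraries and 4.20, 8.02 and 7.58 FPKM in the Quinpirole libraries. Its Quinpirole libraries lay on both sides of the Mock range, so its difference of 0.05 turned to -0.10 without Quinpirole replicate 2 and to -0.06 without Quinpirole replicate 3.

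**Figure D3:**
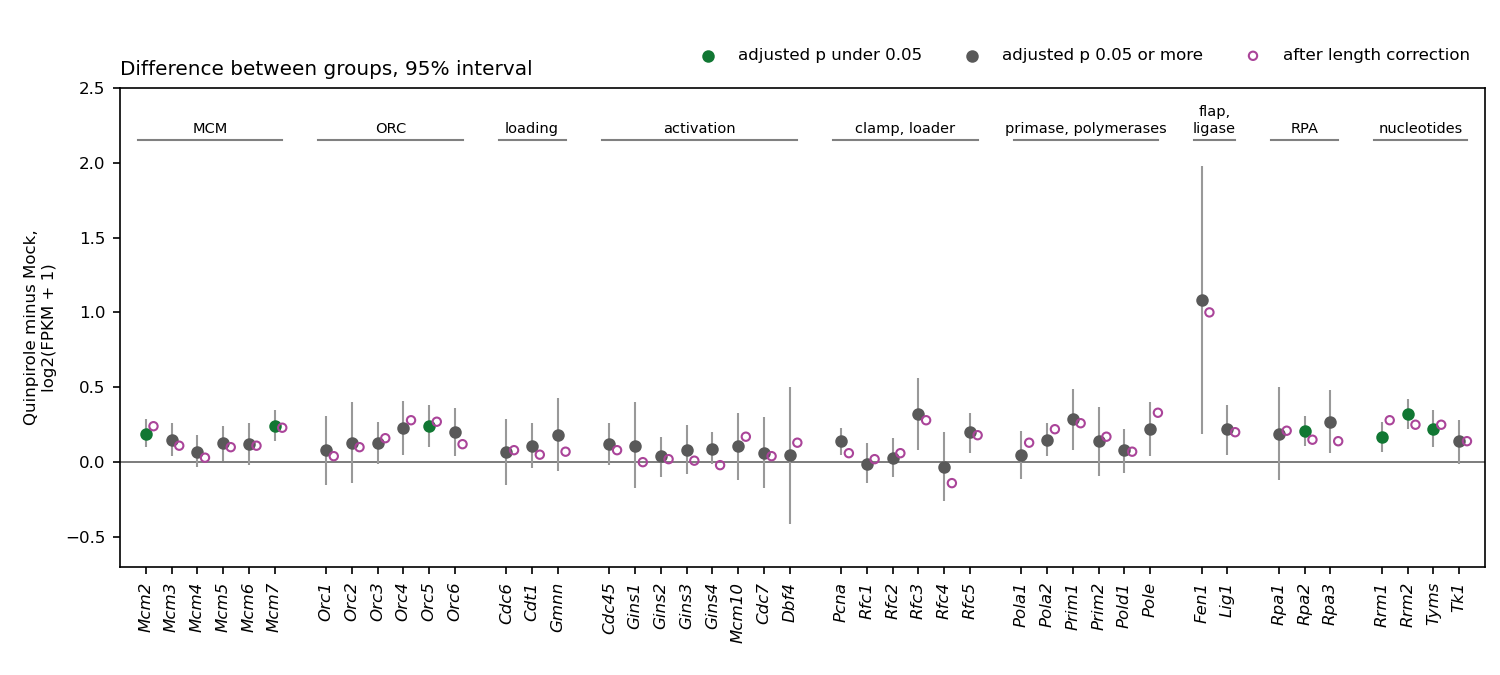
Difference between Quinpirole and Mock means on the log2(FPKM + 1) scale (y axis) for each of the 44 members, grouped by role, with bars for the 95% interval of the limma fit and open circles for the value after correction for exonic length. The 7 filled green points, adjusted p under 0.05, lie between 0.17 and 0.32, and Fen1 has by far the widest interval, from 0.19 to 1.98.

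Pcna encodes the sliding clamp that tethers polymerases to DNA, and replication factor C (Rfc1 to Rfc5) loads it. Of these 6 genes none passed, 4 were higher in the mean, and Rfc1 (-0.01) and Rfc4 (-0.03) were the only members of the 44 with a lower mean. Pcna measured 82.3, 83.4 and 86.6 FPKM in the Mock libraries and 94.2, 94.2 and 89.7 FPKM in the Quinpirole libraries. The groups were separate (84.1 ± 2.20 and 92.7 ± 2.60 FPKM), but the difference of 0.14 (SE 0.04) fell just short, with a limma adjusted p of 0.0575. It narrowed to 0.06 after correction for exonic length and to 0.07 after quantile normalization. Pcna also shares 31.8% of its words, mostly with the pseudogene Pcna-ps2, which itself measured 0.182 to 5.05 FPKM.

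None of the loader subunits passed, and 2 of the 5 were separate between the groups with the Quinpirole libraries higher (background 20.0%). Rfc5 measured 5.97, 5.77 and 6.44 FPKM in the Mock libraries and 6.92, 7.04 and 7.29 FPKM in the Quinpirole libraries, a separate order with a difference of 0.20 (SE 0.06, limma adjusted p = 0.0692). Rfc3 was also separate, at 8.40, 8.71 and 8.76 FPKM against 10.4, 13.3 and 9.72 FPKM, but its Quinpirole libraries were far apart and the difference of 0.32 (SE 0.10) had a limma adjusted p of 0.0835. Rfc1, Rfc2 and Rfc4 overlapped. Rfc2 differed by 0.03, which turned to -0.01 after quantile normalization, and it shares 19.8% of its words with the overlapping gene Lat2. The direction of Rfc1 turned as well, to 0.02 after the length correction.

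Primase and the replicative polymerases were higher in the mean for all 6 genes, with no call as deposited. Prim1, the catalytic primase subunit, measured 5.64, 5.24 and 6.15 FPKM in the Mock libraries and 6.29, 7.72 and 7.47 FPKM in the Quinpirole libraries. The groups were separate, and the difference was 0.29 (SE 0.09) with a limma adjusted p of 0.0723. Pola2, a subunit of polymerase alpha, measured 7.85 to 8.05 FPKM against 8.62 to 9.05 FPKM, and Pole, the leading strand polymerase, 3.45 to 3.69 FPKM against 3.93 to 4.84 FPKM. Both passed once exonic length was corrected for, Pola2 at 0.22 (limma adjusted p = 0.0442) and Pole at 0.33 (limma adjusted p = 0.0448). Their exonic lengths, joined over all annotated transcripts, are 8294 and 11160 bases. The longest single transcript has 2878 bases for Pola2 and 7163 bases for Pole, so the correction of Pola2 rests on a length that no annotated transcript has. Pola1, the catalytic subunit of polymerase alpha, Prim2, the large primase subunit, and Pold1, the lagging strand polymerase, overlapped between the groups, with differences of 0.05, 0.14 and 0.08.

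Okazaki fragments are finished by the flap nuclease Fen1 and the ligase Lig1, and neither passed. Fen1 (chr19:10199132-10204169, minus strand) had the largest difference of all members and also the largest spread: 4.30, 3.40 and 13.0 FPKM in the Mock libraries and 14.0, 13.5 and 13.3 FPKM in the Quinpirole libraries. Mock replicate 3 lay just under the Quinpirole libraries, and the other Mock libraries were far below it. The means were 6.89 ± 5.28 and 13.6 ± 0.323 FPKM, and the difference of 1.08 (SE 0.38) had a limma adjusted p of 0.103. Without Mock replicate 3 it was 1.59 with a limma adjusted p of 0.00439. Of the words of its longest transcript, 81.2% also occur in the antisense gene Gm10143, which covers 78.8% of its exonic bases and was not analysed here. The library kit is not stated to keep strand, so the reads of this pair cannot be told apart. Lig1 was steadier, with 15.9, 17.8 and 15.4 FPKM against 18.4, 18.2 and 20.8 FPKM, groups that were separate and differed by 0.22 without passing (limma adjusted p = 0.0906).

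Replication protein A coats single-stranded DNA at the fork, and 1 of its 3 subunits rose (33.3%, background 10.9%). Rpa2 (chr4:132768332-132778752, plus strand) measured 17.1, 16.8 and 16.5 FPKM in the Mock libraries and 19.3, 19.4 and 20.2 FPKM in the Quinpirole libraries. The libraries were tight within both groups and separate between them (16.8 ± 0.308 and 19.6 ± 0.530 FPKM). The difference was 0.21 (SE 0.04), or 1.17-fold, with a limma adjusted p of 0.0297. After the length correction it was 0.15 and no longer passed (limma adjusted p = 0.0896). Rpa3, the smallest subunit, was separate at 11.5 to 15.0 FPKM against 15.3 to 16.3 FPKM and passed only without Mock replicate 3, the highest of its Mock libraries (0.38, limma adjusted p = 0.0270). Rpa1, the main DNA-binding subunit, overlapped, since Mock replicate 3 at 36.7 FPKM and Quinpirole replicate 3 at 43.7 FPKM both stood above their groups. Of the 3 subunits, 2 were separate with the Quinpirole libraries higher (66.7%, background 20.0%).

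In nucleotide supply 3 of 4 genes were called (background 10.9%), and all 4 were separate between the groups with the Quinpirole libraries higher (background 20.0%). After quantile normalization 2 of the 4 were called (background 6.39%), and after correction for length and GC content 1 (background 3.06%). Rrm2, the subunit of ribonucleotide reductase that is made in S phase, had the smallest p of all members, rank 49 among the 12255 tested genes. It lies at chr12:24708241-24714146 on the plus strand. Its levels were 31.5, 30.7 and 28.9 FPKM in the Mock libraries and 38.1, 38.3 and 38.0 FPKM in the Quinpirole libraries. The Quinpirole libraries were almost equal and well above the Mock libraries (30.4 ± 1.33 and 38.1 ± 0.177 FPKM). The difference was 0.32 (SE 0.04), or 1.25-fold, with a limma adjusted p of 0.0225.

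Rrm1, the large subunit of the same enzyme (chr7:102441695-102469771, plus strand), measured 26.3, 25.3 and 26.3 FPKM in the Mock libraries and 28.6, 28.9 and 30.6 FPKM in the Quinpirole libraries. Its mean rose from 26.0 ± 0.548 to 29.3 ± 1.10 FPKM, by 0.17 (SE 0.04) on the log2 scale, with a limma adjusted p of 0.0481. Rrm1 is the second longest member by exonic length (11012 bases, with a longest single transcript of 5475 bases), and its difference widened to 0.28 after the length correction. Tyms, thymidylate synthase (chr5:30058202-30073617, minus strand), measured 4.21, 4.11 and 4.10 FPKM in the Mock libraries and 4.92, 5.10 and 4.98 FPKM in the Quinpirole libraries. Both groups were tight (4.14 ± 0.0633 and 5.00 ± 0.0944 FPKM), and the difference was 0.22 (SE 0.05), or 1.21-fold, with a limma adjusted p of 0.0446. Tk1, the thymidine kinase of the salvage route, ran from 19.1 to 20.2 FPKM against 20.5 to 23.5 FPKM and did not pass (0.14, limma adjusted p = 0.170). The 4 genes summed to 79.3 to 81.4 FPKM in the Mock libraries and to 93.1 to 95.1 FPKM in the Quinpirole libraries.

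**Figure D4:**
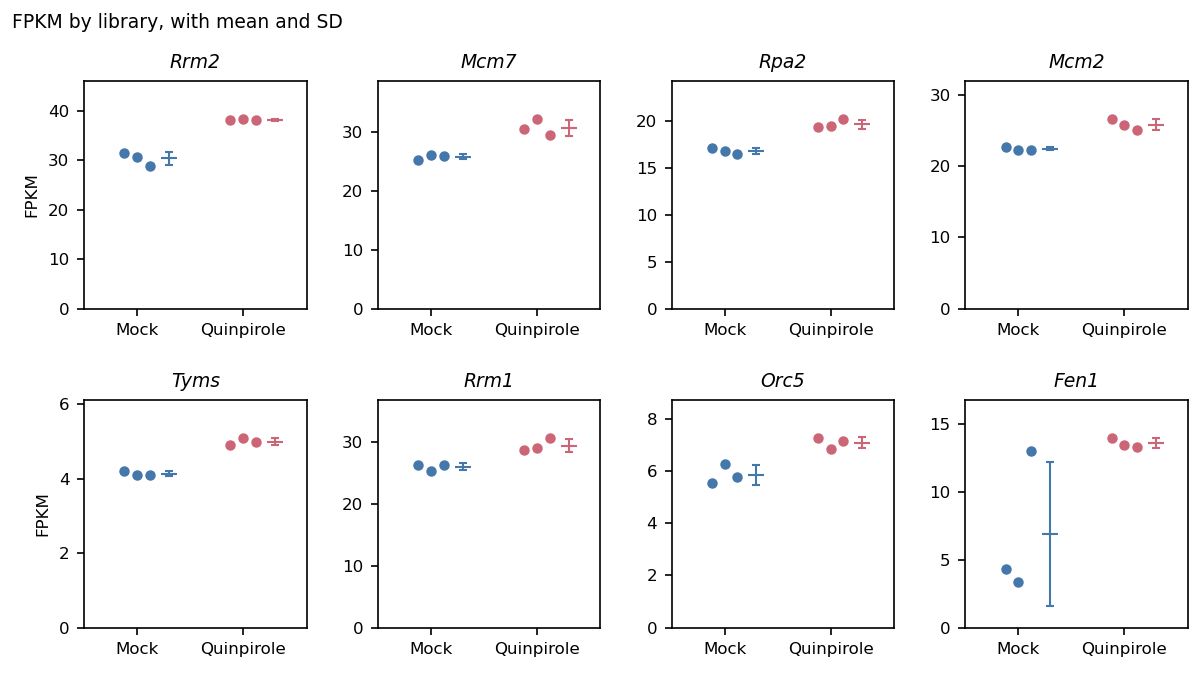
FPKM (y axis, from 0) in each Mock and Quinpirole library for the 7 called members and for Fen1, with 1 point per library and bars for the mean and SD of 3 libraries. In the 7 called members every Quinpirole point lies above every Mock point, and in Fen1 the third Mock library, at 13.0 FPKM, lies beside the Quinpirole libraries.

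The differences between the groups followed gene length across the whole table, and this trend touches the members unequally. Spearman's rho between exonic length and the log2 difference was -0.47 over 12223 genes, which are not independent replicates. The median difference was 0.12 in the shortest of 5 equal groups of genes and -0.11 in the longest. Members lay above this trend on the whole: once the trend was taken out of each library, 42 of the 44, all but Gins4 (-0.02) and Rfc4 (-0.14), were higher in the mean (background 51.5%), with a median of 0.13 beside 0.01 over all tested genes. Then 8 members passed, all higher (18.2%, beside a background of 4.15% in either direction and 2.09% higher). They were Mcm2, Mcm7, Orc5, Rrm1, Rrm2 and Tyms, called before too, and Pola2 and Pole, while Rpa2 was lost. With GC content corrected as well, 4 passed, Mcm2, Mcm7, Rrm1 and Pole (9.09%, background 3.06% in either direction and 1.53% higher), and the median was 0.11. After quantile normalization 6 passed (13.6%, background 6.39% in either direction and 2.31% higher), all but Rrm1 of the 7. The correction cannot tell a technical trend from a real change that follows length. It also uses the exonic length joined over all annotated transcripts of a gene, which can exceed any single transcript, as for Mcm2 (6956 and 3494 bases).

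**Figure D5:**
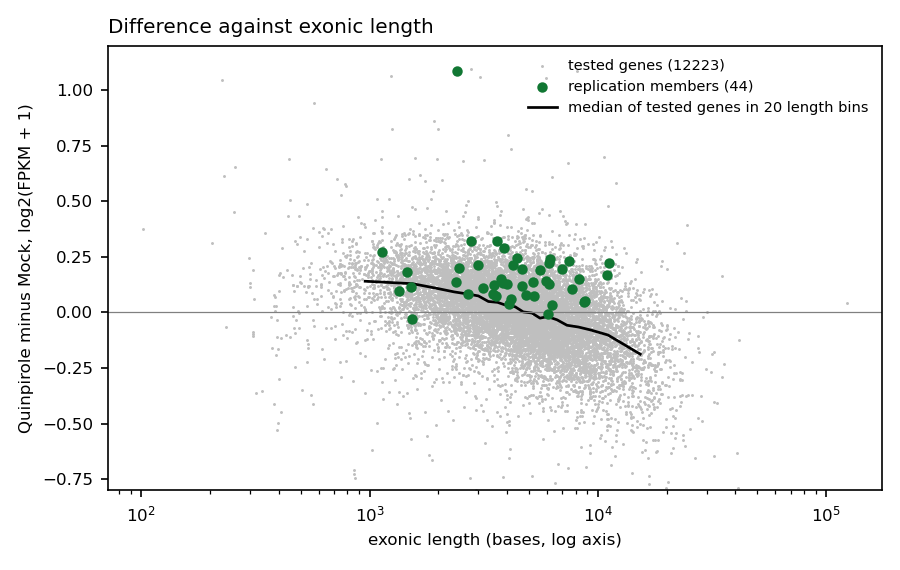
Difference between Quinpirole and Mock means on the log2(FPKM + 1) scale (y axis, cut at -0.8 and 1.2, which leaves out 20 genes) against exonic length in bases (x axis, log scale), with tested genes in grey, the 44 members in green and a black line for the median of tested genes in 20 length bins. The line falls with length, and most members lie above it, with Fen1 alone at the top.

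Members with little shared sequence gave similar counts. The 37 members that share under 10% of their 50-base words with other genes had a median difference of 0.14. Of these, 36 were higher in the mean (97.3%, background 53.8%). Calls numbered 6 (16.2%, background 10.9% in either direction and 5.74% higher). After correction for length and GC content 3 of the 37 were called (8.11%, background 3.06% in either direction). Besides Mcm7, which is called, the members that share more are Fen1, Gins2, Pcna, Orc2, Rfc2 and Rfc4. Without Fen1 the sum of the members was 578 to 594 FPKM in the Mock libraries and 655 to 661 FPKM in the Quinpirole libraries.

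Some markers of other cells moved with the groups as well, and their part in the members' differences was not tested. Marker sums are to be read beside the sum over all listed genes, which was itself higher after quinpirole. That sum was 401769 to 413730 FPKM in the Mock libraries and 425244 to 437164 FPKM in the Quinpirole libraries. Of 7 microglial markers all were tested and none was called in limma, and 5 had an unadjusted p under 0.05 (background 31.3%). Those 5 differed in direction, with log2 differences of -0.12 for Cx3cr1, -0.16 for Csf1r and -0.22 for Itgam, and of 0.22 for Aif1 and 0.21 for C1qa. The microglial sum was 345 to 361 FPKM in the Mock libraries and 360 to 396 FPKM in the Quinpirole libraries, of which C1qa had means of 206 and 238 FPKM. Of the oligodendrocyte precursor markers 4 of the 7 with a row were tested, and Olig1 and C1ql1 rose. Olig2 (0.08) and Cspg4 (-0.19) were not called. The sum was 318 to 327 FPKM against 343 to 367 FPKM, most of it Olig1 (means of 263 and 291 FPKM). Pdgfra, Sox10 and Gpr17 stayed under 1 FPKM and were not tested. Their means were lower after quinpirole, at 0.471, 0.311 and 0.141 FPKM against 0.656, 0.323 and 0.237 FPKM. After the length correction neither Olig1 (0.06, limma adjusted p = 0.389) nor C1ql1 (0.24, limma adjusted p = 0.0929) passed. Neural progenitor markers (5 of 5 tested, only Nes called, lower) summed to 968 to 988 FPKM against 1001 to 1062 FPKM. Most of this sum was Fabp7 (means of 636 and 721 FPKM) and Nes (means of 315 and 277 FPKM). Neuroblast markers (4 of 6 tested, none called) summed to 152 to 170 FPKM against 170 to 184 FPKM, with Dcx at 0.0215 to 0.0582 FPKM. Neuronal markers (2 of 7 tested, Stmn2 higher) summed to 70.8 to 76.2 FPKM against 82.7 to 89.3 FPKM, with Snap25 and Rbfox3 near 0. Mural markers (2 of 5 tested, Pdgfrb lower) summed to 2546 to 2716 FPKM against 2732 to 2902 FPKM, nearly all of it Acta2, and endothelial markers (2 of 5 tested, none called) to 7.70 to 8.07 FPKM against 6.23 to 7.21 FPKM, with Pecam1 near 0. The sums of oligodendrocyte (4 of 7 tested, none called), ependymal (4 of 5 tested, none called) and astrocyte markers overlapped between the groups. Of 12 astrocyte markers tested, 9 were lower in the mean. Slc1a2, Atp1b2 and Slc4a4 were called lower and none higher, beside a background of 5.18% of tested genes called lower. After quantile normalization 5 of the 12 were called, all lower (background 6.39% in either direction). After the length correction only Atp1b2 was called, also lower (background 4.15% in either direction).

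A wider set of 79 genes of replication, its E2F control and mitosis was also mostly higher in the mean, and all 79 were tested. Of these, 66 were higher in the mean (83.5%), the median difference was 0.12, and 12 were called, all higher (15.2%, background 10.9%). After the length correction 4 of the 79 were called (5.06%, background 4.15%). No gene of the set was called without Mock replicate 1, Mock replicate 2, Quinpirole replicate 1 or Quinpirole replicate 2, 1 was called without Quinpirole replicate 3 and 12 without Mock replicate 3. Under the same omissions 3 to 1215 of all tested genes were called, against 1339 with all libraries.

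Among genes that work beside the members at the fork, 1 of 6 polymerase accessory subunits rose, Pold4 (16.7%), and 2 of 18 fork and origin factors, Tipin of the fork protection complex and Chtf8 of the alternative clamp loader (11.1%), beside a background of 10.9%. Neither list had a call after the length correction. Chtf8 shares 93.3% of its words with a second annotated gene of the same symbol, so its value is uncertain. Of 8 genes of chromatin assembly at forks only Chaf1b rose (12.5%), by 0.33 (limma adjusted p = 0.0255), and of 7 genes of lagging strand processing and topology none did. Of 10 further genes of nucleotide supply, the thymidylate kinase Dtymk and the nucleoside diphosphate kinases Nme1 and Nme2 rose, and Nme2 shares 54.5% of its words, mostly with the read-through gene Gm20390.

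Of 18 genes of E2F and Rb control, a list that also holds cyclins and a cyclin-dependent kinase, none was called. In the mean 14 were higher, and the median difference was 0.08. The groups were separate for 4 with the Quinpirole libraries higher (22.2%, background 20.0%) and for 1 with them lower (background 16.9%). E2f1, the activator of S phase genes, measured 12.4, 11.3 and 11.3 FPKM in the Mock libraries and 11.8, 13.1 and 12.3 FPKM in the Quinpirole libraries. Rb1, the repressor of E2F, measured 11.0, 11.3 and 9.90 FPKM against 10.4, 9.70 and 10.8 FPKM. Both overlapped between the groups. Of the 12 mitotic genes 5 were called, all higher (41.7%, beside a background of 10.9% in either direction and 5.74% higher): Cdk1, Ccnb1, Ccnb2, Birc5 and Cenpa. After the length correction 2 of them passed, Cdk1 (limma adjusted p = 0.0368) and Cenpa (limma adjusted p = 0.0425), and of the other genes working beside the members Nme1 and Chaf1b did. Cdk1, the kinase that drives mitosis, measured 18.8, 19.0 and 21.0 FPKM in the Mock libraries and 26.4, 24.7 and 29.2 FPKM in the Quinpirole libraries. Its groups were separate, and the difference of 0.43 (SE 0.07, limma adjusted p = 0.0246) was larger than that of any called member. Mki67, the antigen used to stain dividing cells, did not share this order, with 15.2, 14.9 and 12.7 FPKM in the Mock libraries and 13.5, 11.3 and 13.6 FPKM in the Quinpirole libraries (-0.14, limma adjusted p = 0.314). Top2a, the topoisomerase of dividing cells, overlapped too, at 25.4 to 29.0 FPKM against 28.4 to 31.6 FPKM.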

How the data were processed

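Astrocytes were selected from mouse brain with ACSA-2 microbeads, RNA was taken up in TRIzol and poly-A libraries (NEBNext Ultra) were sequenced in paired ends. Per the study's methods, the authors trimmed the reads, mapped them with TopHat2 and kept reads with at most 1 mismatch. The submitters' processing notes name GRCm38. The version of TopHat2, the annotation and the program that computed FPKM are not given in the sources used here. The authors deposited 1 FPKM value per gene and library, already divided by gene length and library depth, and no counts.

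Libraries were grouped by their treatment labels (3 Mock, 3 Quinpirole). The 17193 identifiers were matched to symbols (17090 matched), and positions, exonic lengths and overlaps come from GENCODE M21 (GRCm38), possibly another annotation than the one used for FPKM. Depth was estimated from the lowest values of 1254 genes with 1 transcript of at least 2000 bases. Genes averaging at least 1 FPKM (12255) were tested on log2(FPKM + 1) with limma 3.58.1 in R 4.3.3 (lmFit, eBayes with trend, two-sided, Benjamini-Hochberg over all tested genes, threshold 0.05). The added 1 understates the changes of weakly expressed genes. For the length correction, each library's deviation from the gene mean had its loess trend (span 0.3) over log2 exonic length subtracted, and likewise for GC content. The fit was tested on simulated data, in which large changes were mostly recovered and changes as small as most of those called here were not. Far fewer genes were changed in that simulation than passed here, which makes the adjusted threshold stricter, so its recovery is not that of these data. A gene that did not pass may still differ.

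The 44 members, the 79 further genes and the marker lists were chosen with earlier results of these data known. Of the marker lists, 1 gene is not reported here. All members are named. Full statistics are given for the 12 members with the smallest p, which include all those past the threshold. Of the 79 genes, those past the threshold are named, with E2f1, Rb1, Mki67, Top2a and Cdk1 whatever their values. Promoters were taken from RefSeq (GRCm38.p6, 36 of 44 members matched), and words of 50 bases were used to count shared sequence. Alternatives were other normalizations, length and GC corrections, pseudocounts, filters, variance models, a replicate block and the omission of each library. Tables and figures used Python 3.11.15, pandas 2.3.3, scipy 1.17.1 and matplotlib 3.10.9.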

Additional observations from a re-analysis of the deposited data

How the results depend on the processing

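Of 739 values of single members under alternative settings, 648 stayed on the same side of zero and of the threshold, 68 kept the direction but no longer passed, 7 newly passed and 16 changed sign, all 16 among members that were not called. The changes of sign were Rfc2 to -0.01 under quantile normalization, Gins4 to -0.02 and Rfc1 to 0.02 under length correction (also with the replicate block), and Gins1 to -0.01, Gins4 to -0.02 and Rfc1 to 0.00 under length and GC correction. When single libraries were left out, the difference ran from -0.03 to 0.11 for Cdc7, from -0.02 to 0.22 for Gins1, from -0.10 to 0.30 for Dbf4, from -0.04 to 0.03 for Rfc1, from -0.03 to 0.06 for Rfc2 and from -0.14 to 0.05 for Rfc4. The cause was not tested.

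Of all tested genes, 1339 passed (704 higher, 635 lower), against 783 under quantile normalization (283 higher, 500 lower), 509 under length correction, 375 under length and GC correction, 633 without a filter on low values, 714 with eBayes without trend and 3 to 1215 when single libraries were left out. Called members numbered 7, against 4 under median ratio scaling, under length and GC correction, without a filter and with eBayes without trend, and 0 to 5 when single libraries were left out. Of the 79 further genes 12 were called, against 4 under either length correction, 7 with eBayes without trend and 0 to 12 when single libraries were left out. The members' median difference of 0.14 was 0.12 under median ratio scaling, 0.13 under length correction, 0.11 under length and GC correction, 0.15 with a minimum mean FPKM of 5 and 0.14 to 0.16 when single libraries were left out.

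The libraries of a group share only a replicate number with those of the other. The deviations of same-numbered libraries correlated at 0.03, -0.07 and -0.10, and not every library correlated best with its own number. With the number as a block, limma called 2 genes, 0 members (20 with an unadjusted p under 0.05) and 0 of the 79 further genes (29 with an unadjusted p under 0.05), and with block and length correction 0 genes, 0 members and 0 further genes (2723, 17 and 21 with an unadjusted p under 0.05). Depth limits the weakest members most, with 78 estimated fragments behind Orc1.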
